A study of Mus musculus with 6 samples.

Results

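The genes described here encode the Egr zinc finger factors (Egr1, Egr2, Egr3 and Egr4), the Nab1 and Nab2 proteins that repress them, and the Nr4a orphan nuclear receptors (Nr4a1, Nr4a2 and Nr4a3). They were taken by symbol from the platform annotation, in which each of the 9 had 1 probe set of its own, and they were 9 of the 17145 genes that passed the intensity filter. Where a gene had several probe sets, the one with the highest mean over all arrays was kept, a choice that none of the 9 needed. The families were proposed with the differences between 8KR and wild type arrays already known, and probe sets were selected on their mean log2 intensity over the 6 arrays, so the adjusted p values below, taken over all probe sets, describe these genes and are not independent support. The cells were NIH/3T3 mouse fibroblasts, a line that grows without limit in culture, kept with 2 µg/ml of α-amanitin, a toxin that blocks RNA polymerase II, and 10% bovine calf serum. Cells of 1 group stably expressed HA-tagged RPB1 in which arginine replaced every K7 lysine of the C-terminal domain (8KR, 3 arrays), and cells of the other stably expressed wild type HA-tagged RPB1 (3 arrays). Both groups therefore carried a tagged polymerase subunit and were grown under the toxin. The labels call the arrays of a group biological replicates. No source used here says whether they come from 1 transfected population or clone, so the p-values may measure the spread between samples of 1 population. No growth factor was added according to the protocols, so the levels are those of cells growing in serum and not of a stimulated response.

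Egr and Nr4a genes are classical immediate-early genes. Serum and growth factors switch them on within minutes through ERK kinases, serum response factor (SRF) and CREB, without new protein synthesis, and their messenger RNAs decay quickly. Egr proteins bind GC-rich sites through zinc fingers. Nab1 and Nab2 dock on Egr proteins and recruit the NuRD complex, and Nab2 is itself induced by Egr factors, which closes a feedback loop. Egr4 lacks the repression domain on which Nab proteins dock in its relatives. Nr4a receptors have no known classical ligand and are controlled largely by how much of them is made, and Nr4a1 and Nr4a2 can pair with retinoid X receptors.

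RefSeq promoter windows show the sequence from which 2 of these genes, the ones whose level differed between the groups, and the relatives of Nr4a1 are transcribed. Of the 9 genes, 7 had an entry, and Egr1 and Egr3 did not. Each window holds the 250 bases before an annotated start in build GRCm38.p6, 5′ to 3′ on the strand of the gene. Capitals mark CArG boxes, which SRF binds, the core TGACG of a cAMP response element on either strand (CGTCA when it lies on the opposite strand), and a TATA box, spelled TATAAA and here found only on the opposite strand of the Nr4a2 window, as in 12.4% of all windows on either strand.
Egr2, chr10:67537619-67537868, strand +: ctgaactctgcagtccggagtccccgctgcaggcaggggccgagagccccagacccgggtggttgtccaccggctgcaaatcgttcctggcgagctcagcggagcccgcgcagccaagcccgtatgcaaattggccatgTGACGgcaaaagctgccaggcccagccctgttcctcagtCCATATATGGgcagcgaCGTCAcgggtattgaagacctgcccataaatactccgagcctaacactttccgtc
Nr4a1, chr15:101266596-101266845, strand +: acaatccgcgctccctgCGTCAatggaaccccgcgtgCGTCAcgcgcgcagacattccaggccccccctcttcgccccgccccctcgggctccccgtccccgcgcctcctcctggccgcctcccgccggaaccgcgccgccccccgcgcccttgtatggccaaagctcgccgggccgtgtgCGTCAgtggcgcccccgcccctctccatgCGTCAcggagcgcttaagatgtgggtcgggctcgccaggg
Nr4a2, chr2:57124004-57124253, strand -: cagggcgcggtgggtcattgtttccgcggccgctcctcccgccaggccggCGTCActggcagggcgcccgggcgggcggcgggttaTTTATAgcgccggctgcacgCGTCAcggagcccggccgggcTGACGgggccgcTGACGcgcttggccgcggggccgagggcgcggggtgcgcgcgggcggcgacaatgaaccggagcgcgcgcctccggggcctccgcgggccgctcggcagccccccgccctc
Nr4a3, chr4:48045055-48045304, strand +: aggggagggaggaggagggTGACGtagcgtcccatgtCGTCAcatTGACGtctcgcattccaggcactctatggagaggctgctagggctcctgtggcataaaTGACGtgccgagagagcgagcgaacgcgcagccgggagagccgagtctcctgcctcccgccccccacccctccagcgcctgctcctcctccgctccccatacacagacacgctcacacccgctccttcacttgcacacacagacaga

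The Egr2 window, which belongs to 1 of 5 annotated starts of the gene, holds 1 CArG box, 72 to 63 bases before the start, with 1 TGACG core on each side of it. The windows of 4 of the 5 starts hold a CArG box, but 1 of these windows has no TGACG core, so its box is a different one. A CArG box occurs in 1.47% of the 32851 promoter windows of the same length, searched on both strands. The windows of Nr4a1, Nr4a2 and Nr4a3 each hold 4 TGACG cores and no CArG box. The Egr4 window holds 2 such cores and the Nab1 window 1. At least 1 core occurs in 17.8% of all windows, and the share with 4 was not counted. The full palindrome TGACGTCA, found in 1.55% of windows, is in none of the windows of these 7 genes. The Egr site GCGNGGGCG occurs once in the Nr4a1 window, once in the Nr4a2 window and 3 times in the Nab1 window, against 4.70% of all windows with at least 1. In the Nr4a1 and Nr4a2 windows it lies 60 to 52 and 74 to 66 bases before the start. It shares bases with the Sp1 box GGGCGG, which 32.7% of windows hold. Neither the Nr4a site AAAGGTCA nor the ETS site CCGGAAG was found in any of them, and the Nab2 window held only an Sp1 box. These are matches of letters and not measured binding.

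**Figure D1:**
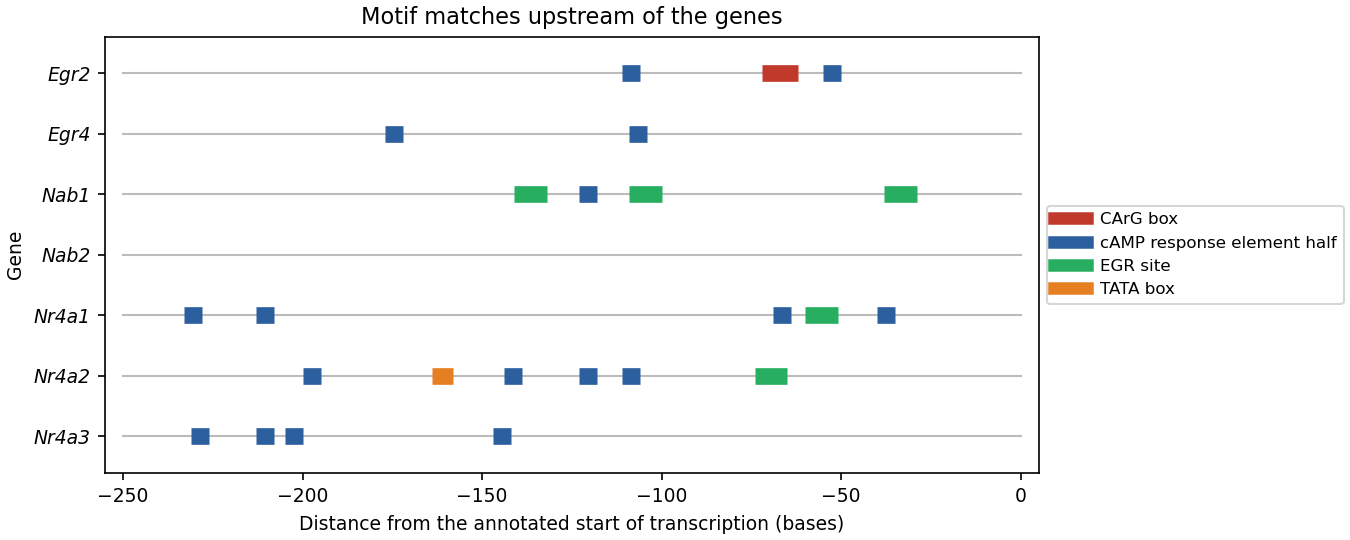
Motif matches in the 250 bases before an annotated start (horizontal axis, distance in bases) of the 7 genes with a searched promoter window, 1 row per gene and 1 colour per motif, with Sp1 boxes left out. Of the windows drawn, that of Egr2 holds the only CArG box, and those of the Nr4a genes hold 4 TGACG cores each.

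In the whole series, values were the authors' normalized log2 intensities from Affymetrix Mouse Gene 1.0 ST arrays, made by a normalization that no source used here names. Array medians were 4.53 to 4.54 in 8KR cells and 4.49 to 4.52 in wild type cells, and Pearson's r between arrays was 0.982 to 0.984 inside the groups and 0.975 to 0.978 across them. A gene was tested if at least 1 group had a mean above 3.0, the cutoff for background in the methods, and was called at an adjusted p under 0.05 from limma. By that rule 5.39% of all tested genes were called, 2.33% higher and 3.06% lower in 8KR cells. Polr2a, which encodes RPB1 itself, had a mean log2 intensity of 12.13 in 8KR cells and 12.10 in wild type cells, and the arrays cannot tell the mutant from the wild type transcript. All 10 fibroblast markers tested, among them Vim and Col1a2, had means above 5.0 in both groups, and 2 of them, the matrix genes Col3a1 and Sparc, fell by 0.52 each. Their average log2 level per array ranged from 10.23 to 10.24 in 8KR cells and from 10.39 to 10.50 in wild type cells. Of 24 tested markers of epithelium, endothelium, blood, Schwann, neuronal and muscle cells, 0 were called by limma, with 4 at an unadjusted p under 0.05. The muscle list averaged 4.63 to 4.72 in 8KR cells and 4.86 to 4.89 in wild type cells. Its log2 differences were -0.74 for Des, -0.26 for Acta1, -0.04 for Ckm, 0.01 for Myod1 and 0.02 for Myog. The lower average thus came mainly from Des and Acta1 and was not shared by the list. The part of these marker shifts in the results below was not tested, and fewer cells of a type and less RNA per cell cannot be told apart.

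Of the 9 genes, Nr4a1 was higher and Egr2 was lower in 8KR cells, and the other 7 did not pass. That is 1 gene called in each direction, against 2.33% and 3.06% of all tested genes. The median log2 difference of the 9 genes was 0.03, beside 0.01 over all tested genes, and their median size was 0.11, beside 0.14. Arrays of the groups did not overlap for 4 of the 9 genes, as for 29.7% of all tested genes, and 3 of the 9 had an unadjusted p under 0.05, as did 21.8% of all tested genes.

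**Figure D2:**
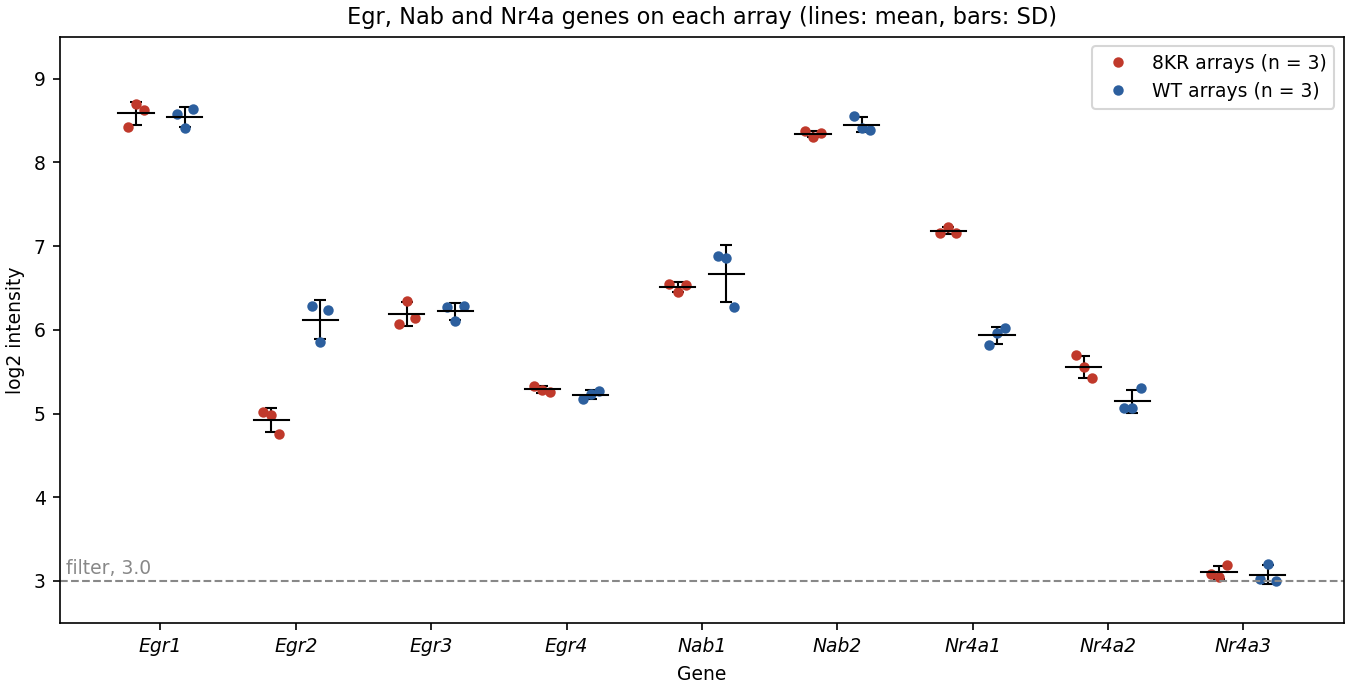
Log2 intensity (vertical axis) of the 9 genes on the 3 8KR arrays (red) and the 3 wild type arrays (blue), with a point per array, the mean as a line and the SD as a bar. Egr2 lies lower and Nr4a1 higher on every 8KR array, whereas both groups of Nr4a3 lie near the filter at 3.0.

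Egr2, also known as Krox20, directs hindbrain segments and the myelin programme of Schwann cells and is an early target of growth factors in fibroblasts. Its log2 intensity was 5.02, 4.98 and 4.75 on the 8KR arrays, against 6.28, 5.85 and 6.24 on the wild type arrays. The highest 8KR array lay 0.83 below the lowest wild type array, and in wild type cells replicate 2 was the lowest. Means were 4.92 ± 0.15 in 8KR cells and 6.12 ± 0.24 in wild type cells (SD, n = 3 each). Egr2 thus fell by 1.20 on the log2 scale, or 2.30-fold, with an interval of -1.56 to -0.85 (95%) and an adjusted p of 0.0133 from limma. This was the 81st lowest log2 difference of the 17145 genes. The call held without 1 of the 6 arrays and was lost without any of the other 5. Without 8KR replicate 1, 2 or 3 the adjusted p from limma was 0.0504, 0.0550 and 0.0532, and without wild type replicate 1 or 3 it was 0.0560 and 0.0585, while without wild type replicate 2 it was 0.0220. The log2 difference stayed between -1.34 and -1.12 in these fits.

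Egr1, the most studied member of the family and the usual marker of an ERK response, did not differ detectably. It had log2 intensities of 8.43, 8.70 and 8.63 on the 8KR arrays, against 8.58, 8.41 and 8.64 on the wild type arrays, so that the groups overlapped. The log2 difference was 0.04, with an interval of -0.22 to 0.30 (95%), which leaves out a change as large as that of Egr2 in either direction. Egr3, a factor of muscle spindles and lymphocytes, had 6.07, 6.34 and 6.14 on the 8KR arrays, against 6.27, 6.10 and 6.28 on the wild type arrays. Its log2 difference was -0.04, with an interval of -0.29 to 0.22. Egr4, which acts in germ cells and neurons, had 5.33, 5.29 and 5.25 on the 8KR arrays, against 5.17, 5.24 and 5.27 on the wild type arrays, a log2 difference of 0.07 with an interval of -0.11 to 0.24. The adjusted p values of Egr1, Egr3 and Egr4 from limma were 0.879, 0.889 and 0.682. Egr1 changed the sign of its difference without 8KR replicate 2 or wild type replicate 2, and Egr3 did so without 8KR replicate 1.

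The corepressors did not pass either. Nab2, the corepressor that Egr factors induce, had log2 intensities of 8.37, 8.30 and 8.35 on the 8KR arrays, against 8.55, 8.41 and 8.38 on the wild type arrays. The groups did not overlap, but the gap between them was 0.008 on the log2 scale. The log2 difference was -0.11, with an interval of -0.30 to 0.09 and an adjusted p of 0.528 from limma. Nab1, the more constant relative of Nab2, had 6.55, 6.45 and 6.54 on the 8KR arrays, against 6.88, 6.86 and 6.28 on the wild type arrays. Wild type replicate 3 lay below all the 8KR arrays, while the other two wild type arrays lay above them. The log2 difference of Nab1 was -0.16, with an interval of -0.59 to 0.27, the widest of the 9 genes, and it was -0.36 without wild type replicate 3 (adjusted p of 0.141 from limma).

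Nr4a1, also known as Nur77, acts in the death of T cells, in steroid-making cells and in the fuel use of muscle, and is among the first genes that serum induces. Its log2 intensity was 7.16, 7.23 and 7.15 on the 8KR arrays, against 5.82, 5.96 and 6.02 on the wild type arrays. The lowest 8KR array lay 1.13 above the highest wild type array, the widest gap among the 9 genes. Means were 7.18 ± 0.04 in 8KR cells and 5.93 ± 0.10 in wild type cells (SD, n = 3 each). Nr4a1 thus rose by 1.25 on the log2 scale, or 2.38-fold, with an interval of 1.04 to 1.45 (95%) and an adjusted p of 0.00246 from limma. It stood 49th among the genes by the size of its rise. Leaving out any 1 of the 6 arrays kept it past the threshold, with adjusted p values from limma of 0.0163 to 0.0203.

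Nr4a2, also known as Nurr1 and required for dopamine neurons, had log2 intensities of 5.69, 5.55 and 5.43 on the 8KR arrays, against 5.07, 5.07 and 5.30 on the wild type arrays. The groups did not overlap, with a gap of 0.12. Its log2 difference was 0.41, with an interval of 0.14 to 0.68, an unadjusted p of 0.00939 and an adjusted p of 0.105 from limma, so that it did not pass. It passed under 1 other setting, the filter at a group mean above 5.0, with an adjusted p of 0.0487 from limma. Nr4a3, also known as Nor1, had 3.08, 3.05 and 3.19 on the 8KR arrays, against 3.03, 3.20 and 2.99 on the wild type arrays. All of these lie near the 3.0 below which the methods take a signal for background, and its log2 difference was 0.03, with an interval of -0.19 to 0.25.

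**Figure D3:**
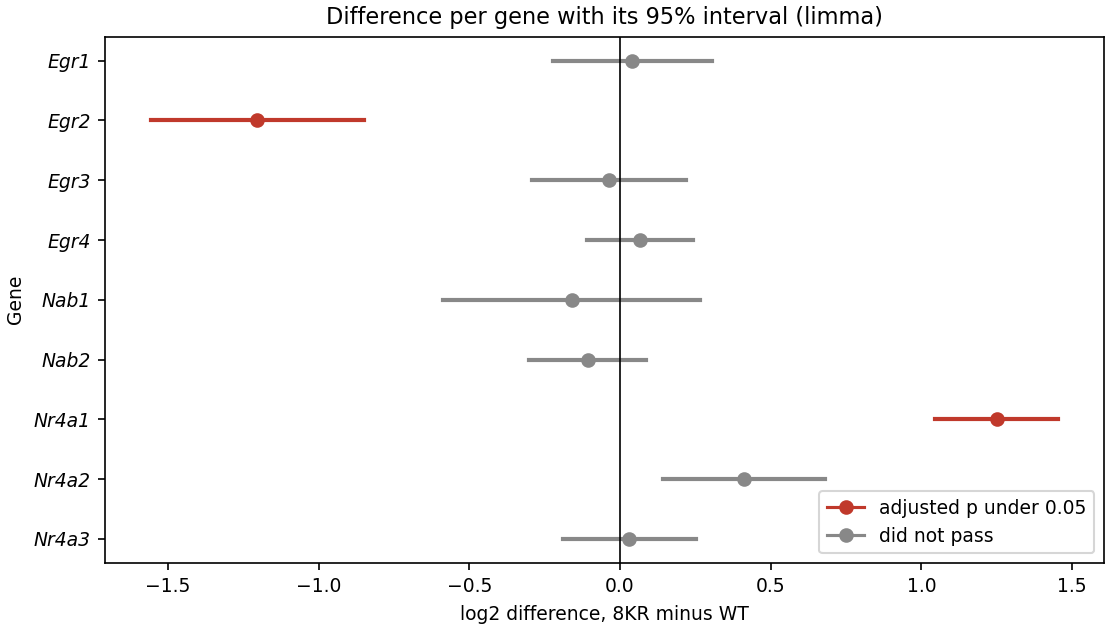
Log2 difference, 8KR minus wild type (horizontal axis), of the 9 genes (vertical axis), with the 95% interval from limma as a line. The intervals of Egr2 (-1.56 to -0.85), Nr4a1 (1.04 to 1.45) and Nr4a2 (0.14 to 0.68) exclude 0, and those of Egr2 and Nr4a1 belong to genes that passed after adjustment over all probe sets (red).

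Relatives were set against each other through the log2 ratio of 2 genes on each array, for 6 pairs picked with the differences above known. The difference of Nr4a1 exceeded that of Nr4a2 by 0.84 ± 0.10 (SE) and that of Nr4a3 by 1.22 ± 0.11 (SE). The difference of Egr2 lay below those of Egr1, Egr3 and Egr4, at -1.24 ± 0.16, -1.17 ± 0.13 and -1.27 ± 0.16 (SE). In each of these 5 pairs the ratios on the 8KR arrays did not overlap those on the wild type arrays. A two-sided exact permutation test gave p = 0.10 for each, the smallest p that 3 arrays against 3 allow (0.12 after Benjamini-Hochberg adjustment over the 6 pairs). It could not reach 0.05, and these 5 pairs were built around Egr2 and Nr4a1 for their known differences. Neither this p nor the lack of overlap is therefore support for a difference between relatives. Nab1 and Nab2 differed by -0.05 ± 0.17 (SE; exact permutation p = 0.80).

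**Figure D4:**
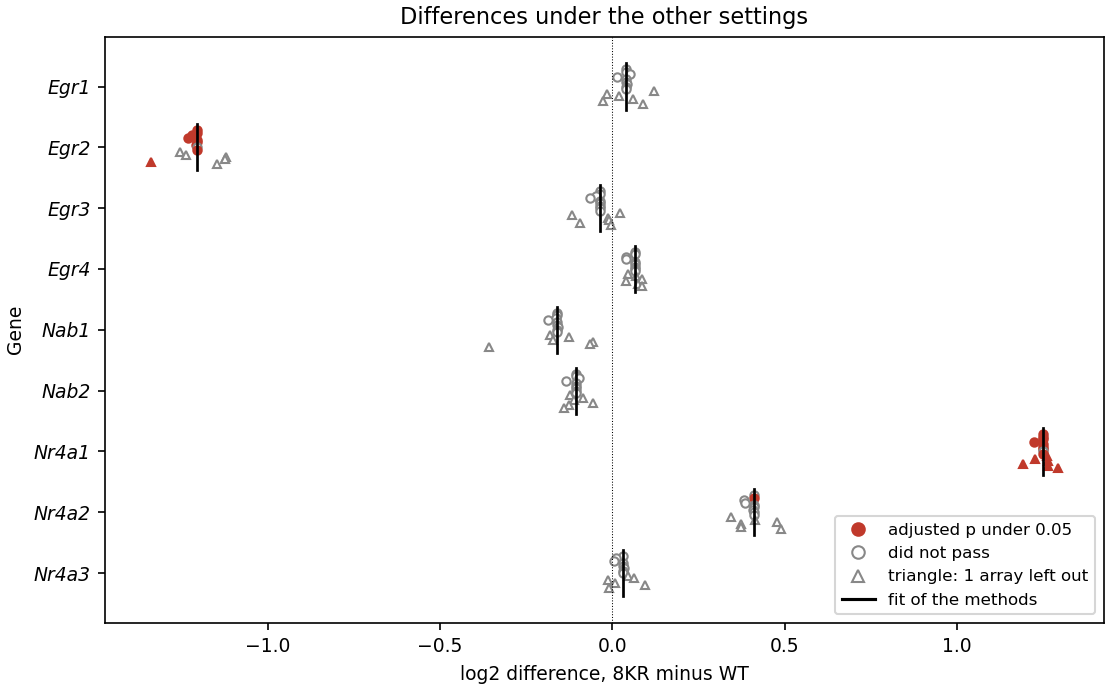
Log2 difference, 8KR minus wild type (horizontal axis), of the 9 genes (vertical axis) under the other settings (circles) and with 1 array left out (triangles), with the fit of the methods as a black line and filled symbols where the adjusted p was under 0.05. Nr4a1 stays between 1.19 and 1.29 and Egr2 between -1.34 and -1.12, whereas Egr1, Egr3 and Nr4a3 fall on both sides of 0.

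The factors known to drive these promoters were counted as a list, each gene tested on its own and the list not tested. Of 18 tested genes for SRF, its partners and the MEF2 and CREB factors, 1 was called, or 5.56% of the list, beside 5.39% of all tested genes. Mrtfa, the actin-controlled coactivator of SRF, fell by 0.58 on the log2 scale to 6.62 ± 0.02 in 8KR cells, against 7.19 ± 0.13 in wild type cells (SD, n = 3 each; adjusted p of 0.0264 from limma). Srf itself had means of 8.16 in 8KR cells and 7.61 in wild type cells, a log2 difference of 0.55 that fell short of the threshold (adjusted p of 0.0548 from limma). The log2 difference of Elk3, an ETS factor of the ternary complex on CArG boxes, was -0.29 and that of Creb1 was 0.36, and neither passed. Srf passed under 4 other settings, with an adjusted p of 0.0485 from limma after quantile normalization and 0.0201 to 0.0228 under the others.

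Among the kinases and receptors upstream, changes ran in both directions. Of 17 tested genes, 1 rose and 3 fell, or 23.5%, beside 5.39% of all tested genes. Egfr, the EGF receptor, had log2 intensities of 3.70, 4.19 and 3.81 on the 8KR arrays, against 4.87, 4.94 and 5.18 on the wild type arrays, and fell by 1.10 on the log2 scale. The PDGF receptor gene Pdgfra fell by 0.75, and Map2k1, which encodes the ERK kinase MEK1, fell by 0.53. Sos1, the exchange factor that loads Ras with GTP, rose by 0.70.

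The next list held NuRD subunits and factors that bind Egr proteins or share their GC-rich site. Of its 19 tested genes, 2 rose and none fell, or 10.5%, beside 5.39% of all tested genes. Chd3, a NuRD helicase, had means of 7.50 ± 0.04 in 8KR cells and 6.80 ± 0.05 in wild type cells (SD, n = 3 each), a log2 difference of 0.70 (adjusted p of 0.00837 from limma). The other was Mbd2, a NuRD subunit that binds methylated DNA, with a log2 difference of 0.35. It passed narrowly, with an adjusted p of 0.0490 from limma, and lost the call with no filter, median centring, robust variances or the replicate number as a block, and without any 1 array. The log2 differences of Hdac3, a histone deacetylase, and Hcfc1, a cofactor, were 0.42 and 0.25, and neither passed.

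Of 23 tested genes described as Egr targets in various cells, 6 rose, none fell and 17 did not pass, a share of 26.1% beside 5.39% of all tested genes. The list's median log2 difference was 0.09. Igf2, an insulin-like growth factor gene, had means of 9.98 ± 0.08 in 8KR cells and 5.07 ± 0.28 in wild type cells (SD, n = 3 each). Thbs1, a matrix glycoprotein that restrains vessels, averaged 11.09 ± 0.05 in 8KR cells and 10.04 ± 0.08 in wild type cells (SD, n = 3 each). The tissue factor gene F3 rose by 1.05, Vegfa, an endothelial growth factor, by 0.75, Plau, the urokinase plasminogen activator, by 0.62 and Mmp14, a membrane matrix protease, by 0.60 on the log2 scale. Pdgfa, Tgfb1 and Hbegf, growth factor genes of the same list picked here for contrast after their values were seen, had log2 differences of 0.03, 0.20 and 0.00. This list and the others were written with earlier results of these data known, so their shares are not independent evidence.

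None of the 11 tested myelin and lipid genes that Egr2 controls in Schwann cells was called by limma, and 2 had an unadjusted p under 0.05. Only 5 of the 11 had means above 5.0 in both groups. The peripheral myelin gene Pmp22 had a log2 difference of -0.24 and the desaturase gene Scd2 one of -0.18, and their adjusted p values from limma were 0.214 and 0.232. Sqle and Dhcr7, enzymes of cholesterol synthesis, had log2 differences of -0.18 and -0.15.

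Of 26 tested partners and described targets of Nr4a receptors, none rose and 2 fell, or 7.69% beside 5.39% of all tested genes, with a median log2 difference of -0.01. Only 9 of the 26 had means above 5.0 in both groups, so low signal limits what these counts can show. Vip, a neuropeptide gene, fell by 1.77 on the log2 scale to 3.89 ± 0.34 in 8KR cells, against 5.66 ± 0.44 in wild type cells (SD, n = 3 each). Pfkm, the muscle phosphofructokinase, fell by 0.66 and did not pass with no filter on low values (adjusted p of 0.0577 from limma). Slc18a2, the vesicular monoamine transporter, and Bcl2l11, which promotes cell death, had log2 differences of -0.51 and 0.64 and did not pass.

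Other immediate-early genes moved in both directions, as Egr2 and Nr4a1 did. Of 44 tested, 4 rose, 3 fell and 37 did not pass, or 15.9% called beside 5.39% of all tested genes, with a median log2 difference of -0.09. Nfil3, a bZIP repressor, rose by 0.64, Ier5 by 0.64, Zfp36, which promotes messenger RNA decay, by 0.55 and the zinc finger factor gene Klf6 by 0.44. Gem, a small GTPase gene, fell by 0.95, Id2, an inhibitor of helix-loop-helix factors, by 0.77 and Ccn2, a matricellular growth factor gene, by 0.48. With no filter on low values the adjusted p from limma was 0.0642 for Ccn2 and 0.0609 for Ier5, and after quantile normalization it was 0.0634 for Ccn2. Over the 7 lists, 13 of 156 genes rose and 9 fell. Leaving out 1 array ended the call of 16 of these 22 genes, or of 12 when that array was wild type replicate 1.

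**Figure D5:**
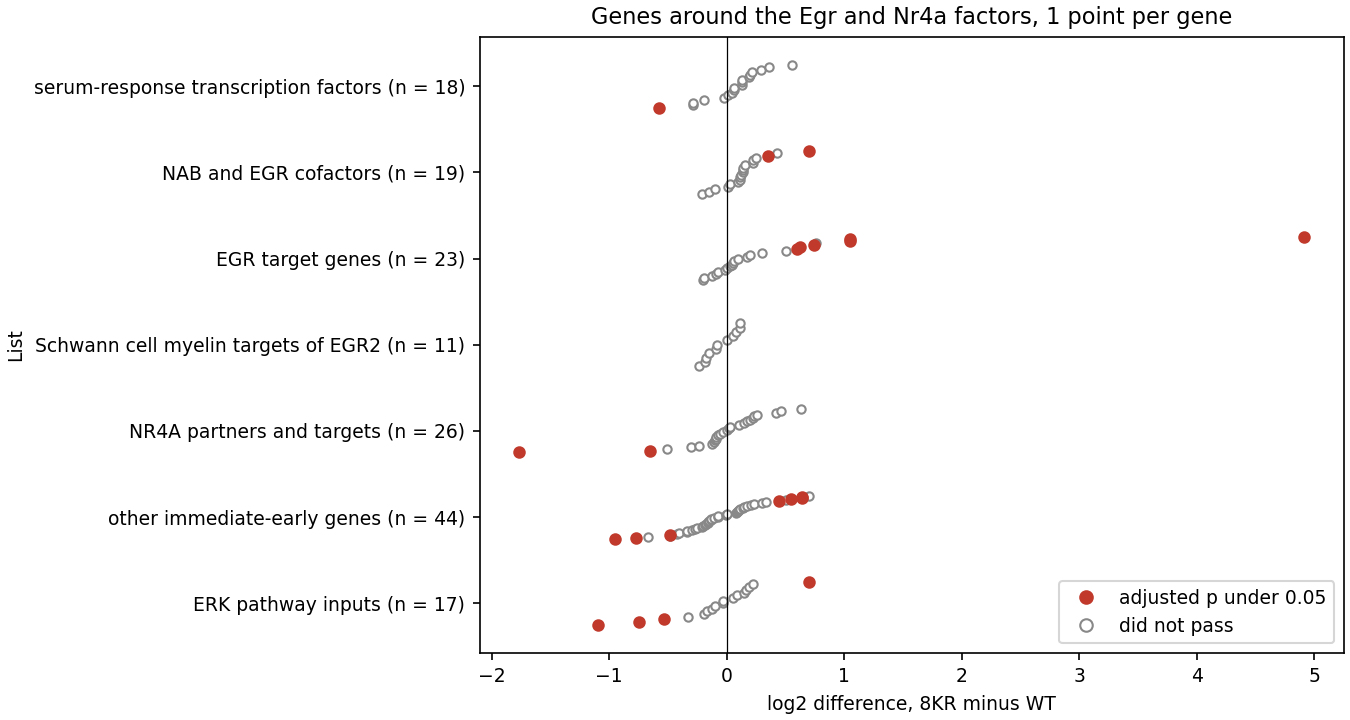
Log2 difference, 8KR minus wild type (horizontal axis), of the tested genes of 7 lists (rows), with a point per gene, filled where the adjusted p from limma was under 0.05. Called Egr targets all lie above 0, with Igf2 at 4.92, whereas called genes of the immediate-early and ERK lists lie on both sides.

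The genes whose profiles over the 6 arrays lay nearest to that of Egr2, by the Euclidean distance between log2 profiles centred on each gene's mean, were Aldh1a1 (0.20), Pltp (0.25) and Fgf10 (0.31). Aldh1a1 makes retinoic acid, Pltp transfers phospholipids and Fgf10 is a growth factor. Their log2 differences were -1.29, -1.14 and -1.29. Nearest to Nr4a1 were Ddah2, an enzyme of methylarginine breakdown, at a distance of 0.24, the linker histone gene H1f10 at 0.25 and Npr3, a clearance receptor of natriuretic peptides, at 0.29. Their log2 differences were 1.25, 1.09 and 1.29. The profiles are dominated by the difference between the groups, so nearness chiefly reflects a difference of like size.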

How the data were processed

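RNA of 6 NIH/3T3 cultures was read on Affymetrix Mouse Gene 1.0 ST arrays. Groups and replicate numbers came from the sample titles. The authors normalized the values and deposited them as log2 intensities of 35557 probe sets. The submitters' processing notes list Affymetrix Power Tools 1.12.0. No source used here states how values were normalized or which build was used. Following the methods, 7014 probe sets with no group mean above 3.0 were removed, and the other 28543 were fitted with lmFit and eBayes of limma 3.58.1 (R 4.3.3) without covariates, with Benjamini-Hochberg adjustment over all of them. The platform annotation gives 1 symbol for 21789 probe sets, several for 1621 and none for 12147. Symbols were updated through Entrez identifiers with RefSeq (GRCm38.p6). The rest took part in the fit but were given no name.

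The genes, the 7 pathway lists and the marker lists were chosen with earlier results of these data known. Named were all 9 genes, from each list the called members or, with fewer than 4 of these, the 4 with the smallest p, and 3 nearest profiles each for Egr2 and Nr4a1. Pdgfa, Tgfb1 and Hbegf fall outside this rule and were picked after their values were seen. List genes without a tested single-symbol probe set were not analysed here. On simulated data of 28543 probe sets, 8%, 64%, 94% and 96% of 50 probe sets given log2 differences of 0.5, 1, 2 and 3 were recovered, with 5 false calls. Far fewer probe sets were changed there than were called in the data. The adjusted p depends on that share, so these percentages need not hold for the fit of the arrays. The number of arrays limits the precision. Alternatives covered the filter, normalization, variance model, array weights, replicate block, single-symbol probe sets and each array left out. Figures were drawn with matplotlib 3.10.9.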

Additional observations from a re-analysis of the deposited data

How the results depend on the processing

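Counts of calls depended on the processing more than the differences did. With the low-value filter raised to 5.0, 1737 genes and 2295 probe sets passed and 2 of the 9 genes were called higher. An intensity trend in the variance gave 1528 genes and 2200 probe sets, and testing only single-symbol probe sets gave 1638 genes and 1748 probe sets. By comparison, 924 genes and 1245 probe sets passed in the fit of the methods. The paper reports a larger number of dysregulated RNAs, so this fit did not reproduce its count. Whether probe sets without a symbol were left out before the adjustment is not stated there. Without 1 array, 274 to 293 genes and 368 to 406 probe sets passed, 1 of the 9 genes was called higher each time and 0 to 1 was called lower. With the replicate number as a block, 63 genes and 77 probe sets passed and 0 of the 9 were called in either direction, with an adjusted p from limma of 0.0834 for Egr2 and 0.0504 for Nr4a1. Same-numbered arrays did not deviate together (correlations of -0.011, 0.009 and -0.0005), so the numbers are taken as names only, and of the 22 called list genes 21 lost their call under the block and Igf2 kept it. Over the arrays left out in turn, the log2 difference ran between -0.026 and 0.120 for Egr1, between -0.117 and 0.0207 for Egr3 and between -0.0124 and 0.0944 for Nr4a3, so its sign turned. Neither Egr2 nor Nr4a1 changed direction under any of the 15 alternatives. The setting with a gene's second probe set could not be run, because no named gene had 2 tested probe sets.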

Other observations

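The 3 tested genes on either side of each of the 9 genes, in the gene order of the RefSeq table, gave 54 neighbours. Around Egr2 and around Nr4a1, 0 of 6 neighbours were called by limma, beside 5.39% of all tested genes. At an unadjusted p under 0.05 there was 1 around Egr2, Rtkn2 with a log2 difference of 0.22, and 0 around Nr4a1. The share over all tested genes was 21.8%. The genes next to Egr2, Nrbf2 and Ado, had log2 differences of 0.15 and -0.13, and those next to Nr4a1, Grasp and Atg101, had 0.28 and -0.26. Around Egr1, Ctnna1, which encodes α-catenin, rose by 0.53 on the log2 scale and was the only 1 of 6 neighbours called. Of these 6, 4 had an unadjusted p under 0.05 from limma, beside 21.8% of all tested genes. Differences were above 0 for 5 of them, and the share of all tested genes above 0 was not counted. The transmembrane gene Tmeff2 near Nab1 fell by 1.10, the glycosyltransferase gene Galnt13 near Nr4a2 by 1.08 and Pradc1 near Egr4 by 0.77. Each was the only called gene among the 6 neighbours there. Stat6, the neighbour of Nab2, had a log2 difference of -0.04.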
